A study of Mus musculus with 10 samples.

Results

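The interferon response and the presentation of antigen by major histocompatibility complex (MHC) class I were examined as a module of 38 listed mouse genes, chosen by name, in sorted skeletal stem cells and marrow stromal cells. Of these, 37 were among the 15078 genes of the table and 1, Mx1, was not in it. All 37 passed the filter on low values that left 13644 genes for testing. By role the 37 were 6 transcription factors, 16 antiviral effectors, 5 nucleic acid sensors and ubiquitin-type regulators, 3 guanylate-binding proteins and 7 genes of antigen processing and MHC class I.

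RNA was sequenced in bulk from 10 libraries. The 4 graft BM-MSC libraries were CD51+CD200+Tomato+ cells from the marrow of femurs of transgenic (POSTN-CRE) mice with a tdTomato reporter, which had been implanted under the skin of wild-type recipients and were taken at 5 months, with Tamoxifen induction. The 3 BM-MSC libraries (bone marrow mesenchymal stem cells) and the 3 P-SSC libraries (periosteal skeletal stem cells) were CD51+CD200+ cells of Wild-type mice at steady state, without treatment. All cells came from a CD45-Ter119-CD31- gate, and the labels give no age for single mice. The question put by the design was how far graft marrow cells with a periosteal label resembled the cells of the periosteum or of the marrow. As limits of the model, Cre was driven by the Postn promoter, which is active in more than 1 cell type, blood cells of a graft come from the host, and BM-MSC 2+4 and P-SSC 2+5 each joined the RNA of more than 1 mouse.

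Interferons bind receptors on the cell surface and act through Janus kinases and STAT and IRF transcription factors, which switch on a large set of interferon-stimulated genes. Type I interferon signals through a complex of STAT proteins with IRF9, and interferon gamma acts largely through IRF1. MHC class I molecules, a heavy chain held by beta-2 microglobulin, show peptides cut by the proteasome and carried into the endoplasmic reticulum by the TAP transporter. NLRC5 is the transactivator of class I genes, and interferon raises the class I pathway in most cell types.

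The promoters of the genes at the centre of the results are shown first, because they hold the letters of 3 kinds of element searched for, the interferon response element, the NF-kB type site and the X2-type box. Each is the 250 bases before the annotated start in RefSeq on GRCm38.p6, 5′ to 3′ on the strand of the gene. Capitals mark GGG and TTCCC with any 2 bases between them (an NF-kB type site) and TGACGC (an X2-type box) in H2-K1 and H2-D1, and GAAA and GAAA with any 2 bases between them (the core of an interferon response element) in B2m and Isg15.
H2-K1 (chr17:34000348-34000597, minus strand): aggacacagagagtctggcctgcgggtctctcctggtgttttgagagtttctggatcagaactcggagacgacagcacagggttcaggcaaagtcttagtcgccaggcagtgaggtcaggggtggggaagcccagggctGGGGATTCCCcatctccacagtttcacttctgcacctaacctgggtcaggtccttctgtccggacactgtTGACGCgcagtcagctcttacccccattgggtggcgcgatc
H2-D1 (chr17:35262844-35263093, plus strand): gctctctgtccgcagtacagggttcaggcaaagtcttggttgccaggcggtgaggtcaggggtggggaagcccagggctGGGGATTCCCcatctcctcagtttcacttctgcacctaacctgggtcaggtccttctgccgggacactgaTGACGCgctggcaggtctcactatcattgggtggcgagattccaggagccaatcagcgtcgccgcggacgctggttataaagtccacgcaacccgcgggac
B2m (chr2:122147437-122147686, plus strand): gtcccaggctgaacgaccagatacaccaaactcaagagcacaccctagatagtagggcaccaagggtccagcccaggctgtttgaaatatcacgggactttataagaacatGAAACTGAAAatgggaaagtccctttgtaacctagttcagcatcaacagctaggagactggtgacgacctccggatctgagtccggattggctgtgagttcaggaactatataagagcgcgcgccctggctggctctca
Isg15 (chr4:156200819-156201068, minus strand): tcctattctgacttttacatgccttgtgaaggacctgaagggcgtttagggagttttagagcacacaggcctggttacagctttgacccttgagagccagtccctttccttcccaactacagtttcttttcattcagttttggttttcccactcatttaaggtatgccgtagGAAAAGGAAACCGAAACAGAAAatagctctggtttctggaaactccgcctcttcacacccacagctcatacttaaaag

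In H2-K1, which encodes a class I heavy chain, the first bases of the NF-kB type site and of the X2-type box lay 111 and 41 bases before the start, and in H2-D1, another heavy chain, 171 and 101 bases. The spacing was 70 bases in both. With the windows shifted by 60 bases against each other, 166 of 190 bases were identical (87.4%). B2m, the light chain, held 1 interferon element 139 bases before its start, and Isg15, a ubiquitin-like modifier, held 3 that overlap, at 78, 72 and 66 bases.

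Promoter windows were found for 32 of the 37 genes. Searched on both strands, the letters of the interferon element were in 11 of the 32 and in 2.98% of all 32851 promoters of that length. Of the 7 antigen presentation genes only B2m held these exact letters. The windows of H2-K1 and H2-D1 both hold agtttcacttct after the NF-kB type site, a similar run that the search did not match. Looser forms of the element were not searched for, so their absence is not shown. The gamma-activated site that STAT dimers bind, TTC and GAA with any 3 bases between them, was in 8 of 32 against 7.02% of all promoters. The NF-kB type site was in 2 of 32 (H2-K1 and H2-D1) against 1.53%, and TGACGC in 3 of 32 (Rsad2, H2-K1 and H2-D1) against 6.12%. These matches are descriptions of letters in a window and were not tested. On the chromosomes, 6 of the 7 antigen presentation genes lay on chromosome 17, all but B2m, and the starts of Psmb9 and Tap1 lay 226 bases apart on opposite strands.

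The libraries held 15415421 to 25223295 reads and 9308 to 13341 genes with a read. The 4 graft libraries and P-SSC 4 stood apart from the other 5 in the level of GC-rich genes. In the graft libraries and P-SSC 4, the median of the 51 genes of over 65% GC was 1.52 to 2.80 higher, relative to genes of 50 to 60% GC, on a log2 scale centred on the mean of each gene, and in the other 5 this difference was -1.81 to -1.51. This split was read from the values, and the labels name no batch. It is the GC split and the GC batch of the sections below. All graft libraries were thus on one side and all BM-MSC libraries on the other, so graft and the GC split cannot be told apart in that comparison, while the P-SSC group lay on both sides. As to identity, Cxcl12, the niche chemokine of marrow stroma, was at 560618 to 736781 normalized counts in the graft, 743661 to 995477 in BM-MSCs and 3503 to 7751 in P-SSCs, and Postn, the periosteal matrix gene, was at 0 in 3 of 4 graft libraries, at 3757 to 5041 in BM-MSCs and at 16558 to 24829 in P-SSCs.

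The clearest pattern was in MHC class I. B2m, H2-K1 and H2-D1 together took 2.61% ± 0.355 of all reads in the graft (SD, n = 4). Their share was 3.30% ± 0.756 in BM-MSCs (SD, n = 3), and P-SSCs gave them only 0.328% ± 0.0527 (SD, n = 3). No P-SSC library came near the lowest marrow library, which was graft 4 with 2.18%. Levels below are normalized counts, a read count divided by the size factor of its library, and are compared between libraries and not between genes. They are listed in the order 1, 2, 3, 4 for the graft, 1, 2+4, 3 for BM-MSC and 1, 2+5, 4 for P-SSC.

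B2m was at 110090.3, 126299, 96051 and 93544 in the graft libraries, 72129.6, 93016 and 54341 in the BM-MSC libraries and 16722, 19359 and 8803 in the P-SSC libraries. The 3 groups did not overlap, with the graft highest and P-SSCs lowest. H2-K1 was at 68588, 89325, 80319 and 60255 in the graft libraries, 138417, 186066 and 115647 in the BM-MSC libraries and 15399, 17830.0 and 7836 in the P-SSC libraries. H2-D1 was at 192104, 233185, 230848 and 160712 in the graft libraries, 372344, 557819 and 307333 in the BM-MSC libraries and 41035, 47981 and 33709.8 in the P-SSC libraries. For both heavy chains the groups did not overlap either, but the order was BM-MSC, then graft, then P-SSC. P-SSC 4 was the lowest library for all 3 genes.

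**Figure D1:**
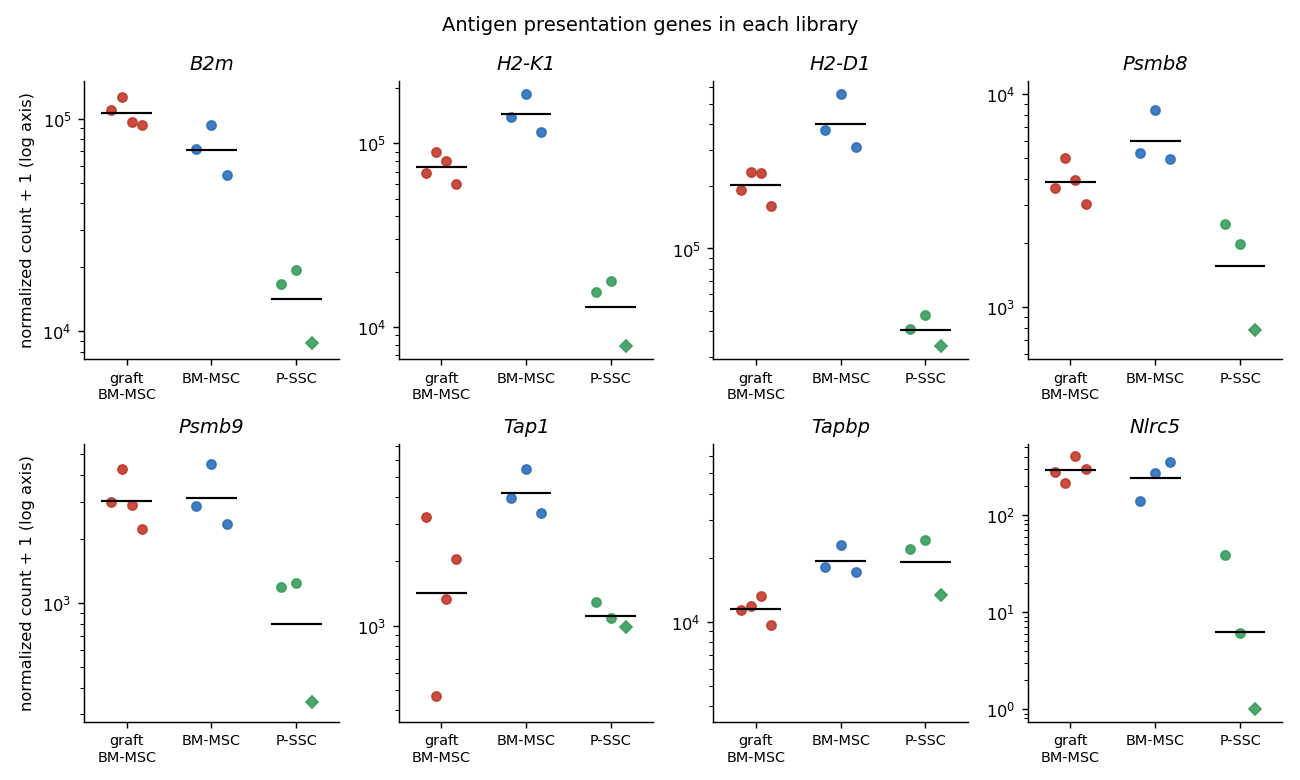
Normalized counts plus 1 (log axis) of 8 antigen presentation genes, with 1 point per library, a line at the mean of the log values of each group (n = 4, 3 and 3), and a diamond for P-SSC 4. B2m, H2-K1, H2-D1, Psmb8, Psmb9 and Nlrc5 are lower in every P-SSC library than in every marrow or graft library, whereas Tapbp is lowest in the graft.

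Set against P-SSCs, graft BM-MSCs had more transcript of 8 members and less of 2. The 8 were B2m, H2-K1, H2-D1, the immunoproteasome subunits Psmb8 and Psmb9, the class I transactivator Nlrc5, and the interferon-stimulated genes Rtp4 and Ifi44. The 2 were Tapbp, which encodes the chaperone that loads peptide onto class I, and Ifi35, an interferon-induced effector. The 10 calls were 27.0% of the 37 members, beside 18.1% of all genes tested. In the higher direction 8 of 37 members were called beside 6.08% of all genes, and in the lower direction 2 beside 12.0%. Of the 10, 6 belonged to the 7 antigen presentation genes, 3 to the 16 antiviral effectors and 1 to the 6 transcription factors, and none to the sensors or the guanylate-binding proteins. In 11 members the groups did not overlap, beside 26.6% of all genes, 7 of them higher in the graft (8.06% of all genes) and 4 lower (18.5%). With edgeR on the reads recovered from the table the called members were Rtp4, Psmb9, B2m, H2-K1 and H2-D1.

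Changes are differences in log2(normalized count + 1) from a limma fit over all 13644 genes, with a standard error and a Benjamini-Hochberg adjusted p. They understate the change of genes with low counts. B2m was higher in the graft than in P-SSCs by 2.90 ± 0.28 (adjusted p = 7.96e-05, limma), 7.46-fold. H2-K1 rose by 2.51 ± 0.28 (adjusted p = 1.97e-04, limma) and H2-D1 by 2.32 ± 0.22 (adjusted p = 8.11e-05, limma). These 3 calls held in each of the 13 alternative settings and each of the 10 fits without 1 library. Against P-SSC 4 alone, the P-SSC library on the same side of the GC split, the graft mean was higher by 3.59 for B2m, 3.24 for H2-K1 and 2.58 for H2-D1.

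In the immunoproteasome, the form of the proteasome that interferon induces, Psmb8 was at 3637, 5031, 3957 and 3049 in the graft libraries, 5296, 8413 and 4958 in the BM-MSC libraries and 2445, 1985 and 779 in the P-SSC libraries. Psmb9 was at 2998, 4286, 2884 and 2232 in the graft libraries, 2850.1, 4522 and 2350.3 in the BM-MSC libraries and 1183, 1243 and 342 in the P-SSC libraries. For both genes the 3 P-SSC libraries lay below all others, and graft and BM-MSC libraries overlapped. The graft difference from P-SSCs was 1.92 ± 0.46 for Psmb9 (adjusted p = 0.0153, limma). That call held in each fit without 1 library, but was lost with median centring, with the 2 groups only and with a block for replicate number. For Psmb8 the difference was 1.31 ± 0.38 (adjusted p = 0.0396, limma), a call that was lost without any 1 of 8 of the 10 libraries. The Psmb8 call was also lost with edgeR and in the same settings as that of Psmb9.

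Nlrc5 was at 279, 211, 402 and 300.4 in the graft libraries, 139.9, 272 and 351 in the BM-MSC libraries and 37.4, 5.10 and 0 in the P-SSC libraries. P-SSC libraries held few reads or none of it, and every graft and BM-MSC library lay above them. The difference from the graft was 5.56 ± 1.17 (adjusted p = 0.00773, limma), and it fell to 4.25 without P-SSC 4. Rtp4, a chaperone of receptors that interferon induces, was at 1679, 1996, 829.8 and 1381 in the graft libraries, 1416, 1808 and 1661 in the BM-MSC libraries and 592, 344 and 191 in the P-SSC libraries. It was higher in every graft than in every P-SSC library, by 2.04 ± 0.43 (adjusted p = 0.0078, limma). Of its 50-base windows, 13.6% also occurred in another annotated gene, so part of its reads is uncertain.

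Ifi44, an interferon-induced protein of the cytoplasm, was at 775, 23.6, 244 and 364 in the graft libraries, 237, 81.2 and 209 in the BM-MSC libraries and 40.5, 0 and 0 in the P-SSC libraries. Graft 2 lay below P-SSC 1, so the groups overlapped. The difference was 5.88 ± 1.63 (adjusted p = 0.0305, limma), and the call was lost in 7 of the 10 fits without 1 library, both without P-SSC 2+5 and without P-SSC 4.

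Tapbp and Ifi35 went the other way. Tapbp was at 11318, 11880.1, 13156 and 9642 in the graft libraries, 18091, 22845 and 17150.4 in the BM-MSC libraries and 21964, 24092 and 13304 in the P-SSC libraries, so each graft library lay below each steady-state library of either kind. Its difference from P-SSCs was -0.75 ± 0.22 (adjusted p = 0.0433, limma). Ifi35 was at 972, 686, 736 and 702 in the graft libraries, 1241, 2171 and 1709 in the BM-MSC libraries and 1781, 1855 and 1139 in the P-SSC libraries, again with the graft below all others, and differed by -1.02 ± 0.30 (adjusted p = 0.0419, limma). Both calls depended on the setting. With correction for GC content the differences were -0.04 and -0.24, with adjusted p of 0.957 and 0.727 (limma).

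Tap1, a subunit of the peptide transporter, did not pass the test against P-SSCs. It was at 3231, 464, 1332 and 2049.8 in the graft libraries, 3986, 5434 and 3382 in the BM-MSC libraries and 1287, 1083 and 988 in the P-SSC libraries. Graft libraries spread from below all P-SSCs to nearly the lowest BM-MSC, and the difference was 0.35 ± 0.54 (adjusted p = 0.68, limma). P-SSCs lay below BM-MSCs in Tap1 without overlap, by -1.91 ± 0.58 (adjusted p = 0.0723, limma). That difference was called by DESeq2, and by limma with median centring, quantile normalization, GC correction or the 2 groups only. It was also called without graft 1 or graft 2.

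**Figure D2:**
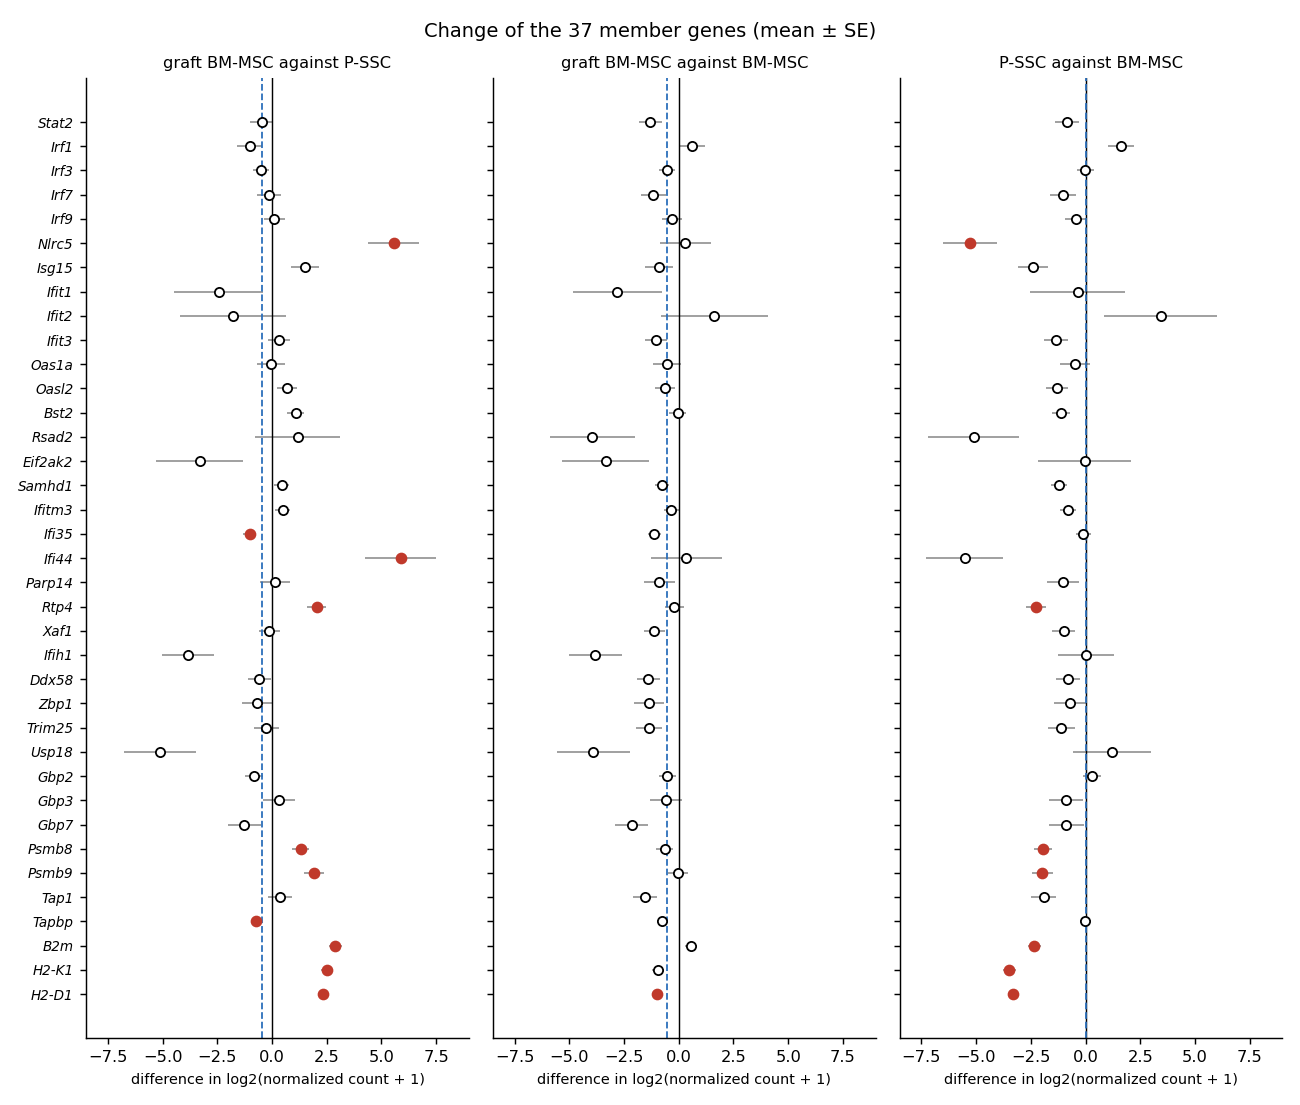
Differences in log2(normalized count + 1), with their standard errors, of the 37 genes in 3 comparisons (graft minus P-SSC, graft minus BM-MSC, P-SSC minus BM-MSC), where filled points have an adjusted p under 0.05 and the dashed line is the median of all 13644 genes. Filled points number 10, 1 and 7, and most of them are at the bottom, among the antigen presentation genes.

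At steady state, P-SSCs were lower than BM-MSCs in 7 of the 37 members and higher in none that passed the test, beside 9.15% of all genes called, 4.58% lower and 4.57% higher. DESeq2 called Irf1 higher. The 7 were B2m, H2-K1, H2-D1, Psmb8, Psmb9, Nlrc5 and Rtp4. This comparison shares the P-SSC libraries with the one above and is not independent of it. The median difference over the 37 was -1.003, where that of all genes was 0.0022.

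Of the 3 class I chains H2-K1 differed most, by -3.48 ± 0.30 (adjusted p = 6.71e-05, limma), an 11.1-fold lower level. For H2-D1 it was -3.30 ± 0.24 (adjusted p = 1.89e-05, limma) and for B2m -2.33 ± 0.30 (adjusted p = 5.68e-04, limma). For Psmb8 the difference was -1.96 ± 0.41 (adjusted p = 0.0116, limma) and for Psmb9 -1.97 ± 0.49 (adjusted p = 0.03, limma). Nlrc5 differed by -5.27 ± 1.25 (adjusted p = 0.0229, limma) and Rtp4 by -2.25 ± 0.46 (adjusted p = 0.00968, limma). The Nlrc5 call was lost with edgeR (-4.31, adjusted p = 0.134), with a pseudocount of 0.1, with the 2 groups only, and without any 1 of the BM-MSC libraries or P-SSC 2+5. The Psmb9 call was lost with GC correction (-1.99, adjusted p = 0.0727, limma), with median centring, with the 2 groups only and without any 1 BM-MSC library, and the Psmb8 call without BM-MSC 2+4.

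Without P-SSC 4, both groups lie on the same side of the GC split, and the same 7 genes were called together with Irf1. The differences then were -1.99 for B2m, -3.12 for H2-K1, -3.17 for H2-D1 and -3.96 for Nlrc5. In 20 of the 37 genes every P-SSC library lay below every BM-MSC library, beside 15.8% of all genes, and in none did every P-SSC library lie above. Over both directions 30.9% of all genes had groups without overlap.

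Between graft BM-MSCs and steady-state BM-MSCs, 1 of 37 members passed the test, beside 7.67% of all genes (5.06% lower), and it was H2-D1. Its level in the graft was lower by a difference of -0.99 ± 0.22 (adjusted p = 0.0263, limma). After quantile normalization the sign turned, to 0.34 (adjusted p = 0.193, limma), and with GC correction it was -0.33 (adjusted p = 0.664). H2-K1 gave -0.96 ± 0.28 (adjusted p = 0.0691, limma) and B2m 0.57 ± 0.28 (adjusted p = 0.231, limma). H2-K1 was called by DESeq2 and without P-SSC 4, and B2m after quantile normalization, at 1.06 (adjusted p = 0.0094, limma). The median over the 37 was -0.89 and that of all genes -0.53. Of 11 members without overlap, beside 25.0% of all genes, 10 had every graft library below every BM-MSC library, beside 14.7% of all genes, and 1, B2m, had it above, beside 10.3%.

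B2m was also set against the heavy chains within each library. The ratio of B2m to the sum of H2-K1 and H2-D1 within a library, whose absolute size has no meaning because the transcripts differ in length, was 0.422, 0.392, 0.309 and 0.423 in the graft, 0.141, 0.125 and 0.128 in BM-MSCs and 0.296, 0.294 and 0.212 in P-SSCs. The group means were 0.386 ± 0.0539 (SD, n = 4), 0.132 ± 0.00852 (SD, n = 3) and 0.267 ± 0.0481 (SD, n = 3), and no 2 groups overlapped. B2m has 41.2% GC, and H2-K1 and H2-D1 have 54.3% and 55.9%. The part of GC content in the ratio was not tested.

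Immunoproteasome subunits were likewise set against their constitutive partners. Psmb8 over Psmb5 was 1.17 ± 0.415 in the graft, 1.36 ± 0.228 in BM-MSCs and 0.465 ± 0.174 in P-SSCs (SD, n = 4, 3 and 3). Psmb9 over Psmb6 was 0.502 ± 0.0719, 0.389 ± 0.109 and 0.120 ± 0.0417 (SD, n = 4, 3 and 3). For both ratios the P-SSC libraries lay below all others. Of 14 constitutive proteasome subunits none was called by limma in any of the 3 comparisons, nor by edgeR or DESeq2, and none had an unadjusted p under 0.05.

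The ratios were chosen after the values were seen. Exact permutation tests (two-sided, 12 over 4 ratios and 3 comparisons) gave no adjusted p below 0.171, and groups of this size cannot give an unadjusted p below 0.0571 (4 against 3) or 0.1 (3 against 3). The ratio of H2-D1 to H2-K1, the fourth, was 2.61 to 2.87 in the graft, 2.66 to 3.00 in BM-MSCs and 2.66, 2.69 and 4.30 in P-SSCs. Only P-SSC 4 lay outside the range of the others. Of the 50-base windows of H2-K1, 8.11% occur in other genes, mostly H2-D1, and of those of H2-D1 14.3%, so the division of reads between them is uncertain.

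**Figure D3:**
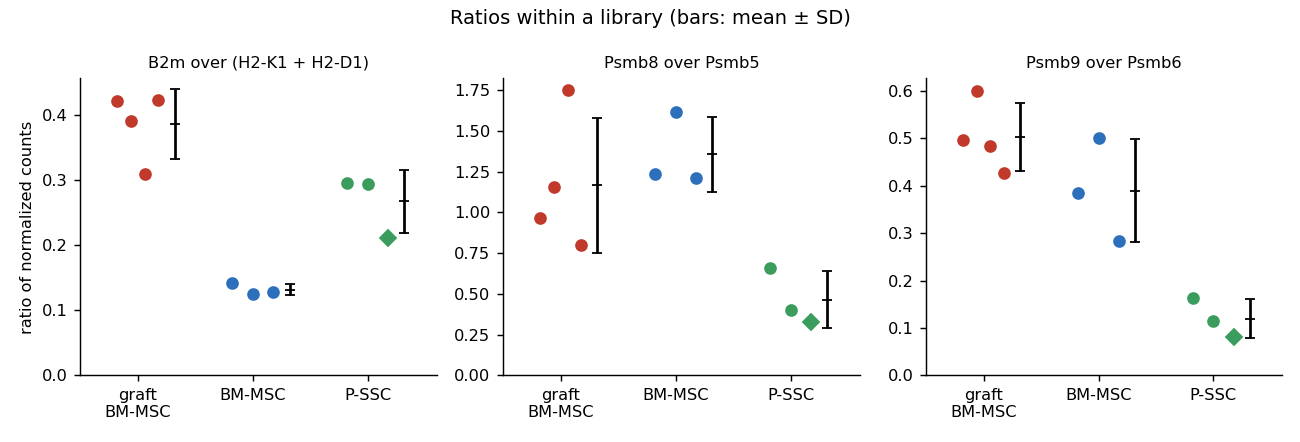
Ratios of normalized counts within each library, by group, with the mean ± SD beside the points and a diamond for P-SSC 4. For B2m over the heavy chains the graft is highest (mean 0.386) and BM-MSCs lowest (0.132), and for both proteasome ratios P-SSCs are lowest.

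Of the 5 transcription factors other than Nlrc5 none was called by limma or edgeR in any comparison. With unadjusted p 2 fell under 0.05, Stat2 between graft and BM-MSCs and Irf1 between P-SSCs and BM-MSCs, where 25.5% and 18.7% of all genes did. Stat2, a partner in the type I interferon complex, was at 148, 486, 514 and 638 in the graft libraries, 822, 1043 and 1076 in the BM-MSC libraries and 796, 534 and 372 in the P-SSC libraries. BM-MSC libraries lay above all graft and all P-SSC libraries, and the difference of the graft from them was -1.31 ± 0.52 (adjusted p = 0.151, limma). Irf9, which binds DNA for that complex, was at 519.8, 2402, 1494 and 1416 in the graft libraries, 1320.1, 2128 and 1404 in the BM-MSC libraries and 1372, 1354 and 892 in the P-SSC libraries. The groups overlapped throughout.

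Irf7, which amplifies type I interferon, was at 1824, 1336, 368 and 1990.3 in the graft libraries, 1857, 3476 and 2683 in the BM-MSC libraries and 1640.1, 1497 and 831 in the P-SSC libraries. Every P-SSC library lay below every BM-MSC library, with a difference of -1.03 ± 0.60 (adjusted p = 0.458, limma). Irf1, the main factor of the interferon gamma response and an activator of class I genes, was at 4545, 9295, 5123 and 5859 in the graft libraries, 3452, 5826 and 2964 in the BM-MSC libraries and 20210.1, 23001 and 3815 in the P-SSC libraries. P-SSC 1 and P-SSC 2+5 were higher than every other library, and P-SSC 4 was within the range of BM-MSCs. With all libraries the graft differed from P-SSCs by -1.02 ± 0.56 (adjusted p = 0.24, limma), and without P-SSC 4 by -1.85 (adjusted p = 0.00513). Likewise P-SSCs differed from BM-MSCs by 1.63 ± 0.60 (adjusted p = 0.146, limma), and by 2.46 without P-SSC 4 (adjusted p = 0.00258). The P-SSCs, with the lowest class I levels, included the 2 libraries with the highest Irf1. Within the group, P-SSC 4 was lowest in Irf1 and also in B2m, H2-K1 and H2-D1. The relation of Irf1 to class I levels was not tested.

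Among the antiviral effectors, Isg15 was at 864, 482, 389 and 1193 in the graft libraries, 808, 1519.7 and 1527 in the BM-MSC libraries and 559.9, 268 and 85.3 in the P-SSC libraries. P-SSCs lay below BM-MSCs without overlap, by -2.39 ± 0.69 (adjusted p = 0.0581, limma). This difference was called by DESeq2 (-2.06, adjusted p = 0.0348), and by limma with a pseudocount of 5 or without P-SSC 1. Bst2, which tethers budding virus to the cell, was at 7638, 3986, 2616 and 4032 in the graft libraries, 3518, 5748 and 4189 in the BM-MSC libraries and 2426, 2830.5 and 1182 in the P-SSC libraries, and Ifitm3, which blocks virus entry, at 40491, 50889, 41056 and 31461 in the graft libraries, 42197, 60690.3 and 52361 in the BM-MSC libraries and 38898, 42946 and 14546 in the P-SSC libraries. For Ifitm3 the groups overlapped apart from the low P-SSC 4. In Bst2 every P-SSC library lay below every BM-MSC library, with a difference of -1.13 ± 0.43 (adjusted p = 0.159, limma).

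Ifit1 and Ifit3 bind foreign RNA. Ifit1 was at 351, 1047, 0 and 498 in the graft libraries, 843, 518 and 1239.8 in the BM-MSC libraries and 2667, 432 and 218 in the P-SSC libraries. Graft 3 held no read of it, and P-SSC 1 stood above all other libraries. Ifit3 was at 862, 1312, 355 and 484 in the graft libraries, 1091, 1551 and 1505 in the BM-MSC libraries and 946, 349 and 455 in the P-SSC libraries. It shares 51.2% of its 50-base windows with Ifit3b, so its values are uncertain, as are those of Oas1a, with 57.6% shared with Oas1g. Neither Ifit gene was called.

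The remaining effectors are given by range. Samhd1, which degrades nucleotides, was at 2156 to 4838 in the graft, 4206 to 6729 in BM-MSCs and 1624 to 3312 in P-SSCs. Oasl2 had 785 to 2015, 1538 to 2598 and 452 to 1488, in the same order. Rsad2, the enzyme viperin, had 0 to 181, 149 to 434 and 0 to 66.5, so that BM-MSCs lay above all P-SSC libraries. None of these 3, nor Ifit2, Oas1a, Eif2ak2, Parp14 or Xaf1, was called in any comparison by limma as described, but Samhd1 was called lower in P-SSCs than in BM-MSCs by DESeq2, and by limma after quantile normalization or without graft 1, graft 2 or P-SSC 2+5.

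**Figure D4:**
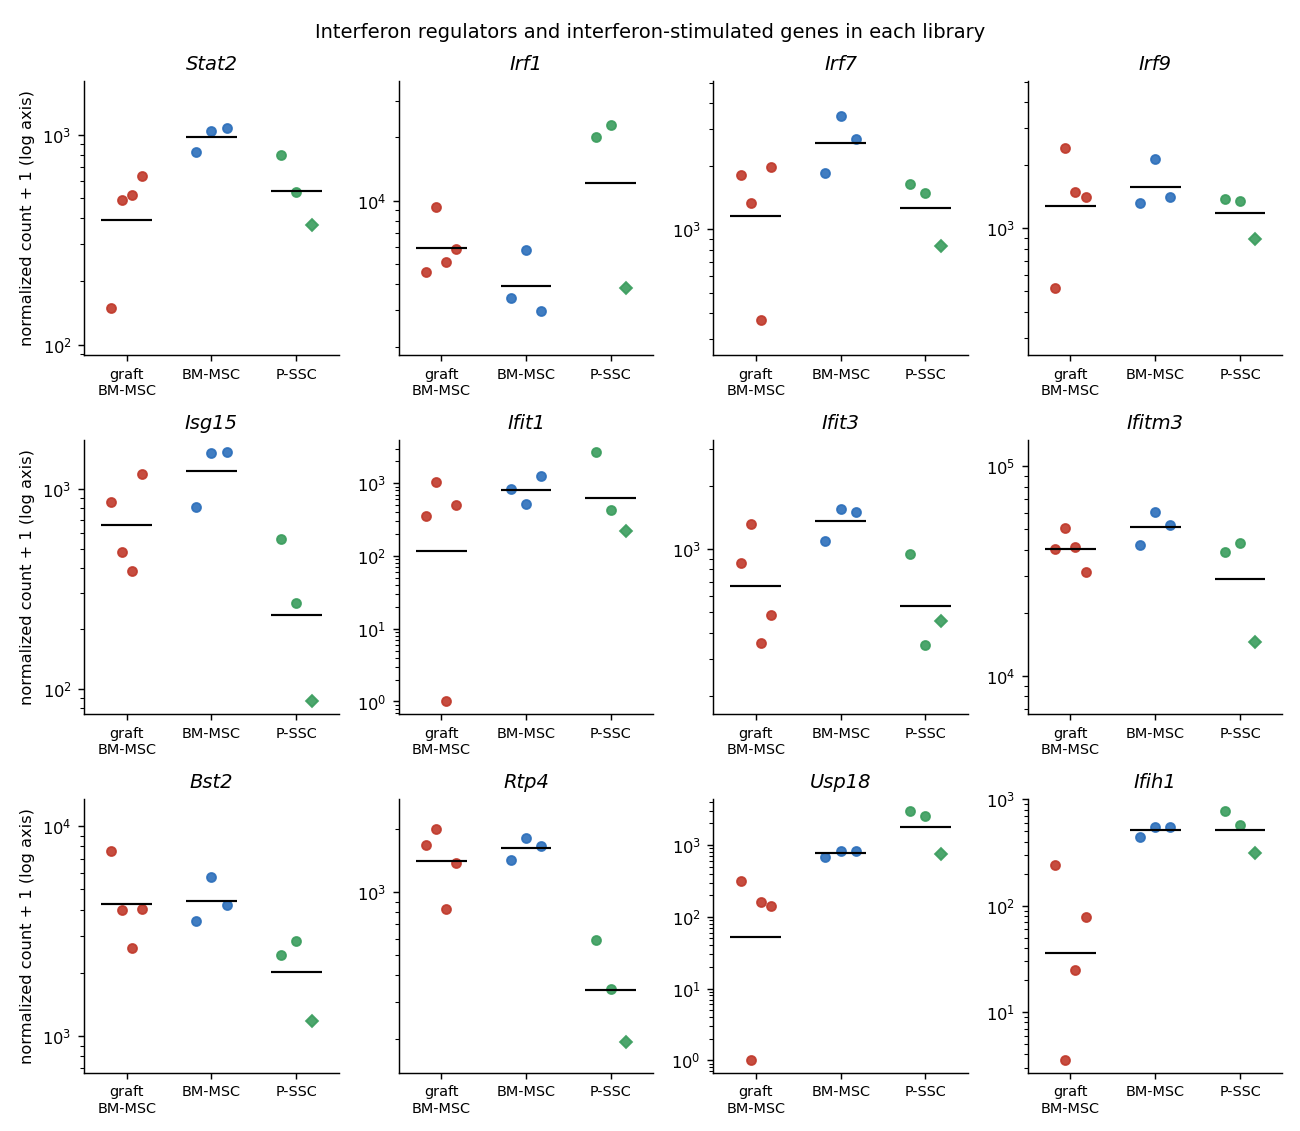
Normalized counts plus 1 (log axis) of 12 interferon regulators and interferon-stimulated genes, with 1 point per library, a line at the mean of the log values of each group (n = 4, 3 and 3), and a diamond for P-SSC 4. Irf1 is high in 2 P-SSC libraries only, Rtp4 is lowest in P-SSCs, and Usp18 and Ifih1 are lowest in the graft.

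None of the 5 sensors and regulators was called by limma as described or by edgeR. All 5 had differences below 0 in the graft, with a median of -0.67 against P-SSCs and -1.40 against BM-MSCs, beside -0.47 and -0.53 for all genes. At an unadjusted p under 0.05 there were 2 of 5 against P-SSCs, beside 32.8% of all genes, and 4 of 5 against BM-MSCs, beside 25.5%. Ifih1 (MDA5, a sensor of long double-stranded RNA) and Usp18 (which removes ISG15 and restrains the type I receptor) were singled out after their values were seen, as the nearest to the threshold. Ifih1 was at 243, 2.53, 24.2 and 77.7 in the graft libraries, 442, 546 and 548 in the BM-MSC libraries and 776, 573 and 313 in the P-SSC libraries, and Usp18 at 311, 0, 161 and 142 in the graft libraries, 681, 831 and 827 in the BM-MSC libraries and 2974, 2559 and 753 in the P-SSC libraries. For both, every graft library lay below every steady-state library. The differences from P-SSCs were -3.85 ± 1.21 (adjusted p = 0.0508, limma) and -5.11 ± 1.66 (adjusted p = 0.0568, limma). Both lay close to the threshold and were called lower than in P-SSCs by DESeq2, and by limma with a pseudocount of 5, after median centring or quantile normalization, and without graft 1 or graft 2. Ifih1 was also called with GC correction, and against BM-MSCs after quantile normalization or without graft 1. Usp18, like Irf1, was higher in P-SSC 1 and P-SSC 2+5 than in all other libraries.

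Ddx58 (RIG-I, the sensor of RNA ends) was at 188 to 679 in the graft, 597 to 1223 in BM-MSCs and 343 to 628 in P-SSCs. Zbp1 ranged over 103 to 512, 389.5 to 984 and 179 to 689, and Trim25, the ligase that acts on RIG-I, over 116 to 313, 382 to 521 and 108 to 319.9, in the same order of groups. Of the guanylate-binding proteins, which attack the vacuoles of intracellular microbes, Gbp2 ranged over 817 to 1717, 1487 to 2277 and 1254 to 3428, and Gbp7 over 23.6 to 192, 434 to 466 and 184 to 346. Without P-SSC 4, Gbp2 was called lower in the graft than in P-SSCs, at -1.21 (adjusted p = 0.0425, limma).

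P-SSC 4 was the lowest P-SSC library in 30 of the 37 members (81.1%), whereas it was lowest in 36.3% of all genes tested. The highest group mean was in BM-MSCs for 24 members, in P-SSCs for 9 and in the graft for 4. The lowest was in P-SSCs for 19, in the graft for 16 and in BM-MSCs for 2.

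Further genes of the pathway were counted from lists that were chosen with earlier results of these data known. The shares of all genes called were 18.1% between graft and P-SSCs, 9.15% between P-SSCs and BM-MSCs and 7.67% between graft and BM-MSCs. Of 16 other class I and peptide loading genes, 4 were higher and 1 lower in the graft than in P-SSCs (31.2% called), and the same 4, H2-Q4, H2-Q6, H2-Q7 and H2-T22, were lower in P-SSCs than in BM-MSCs (25.0% called). H2-Q7, a nonclassical heavy chain, was at 4302, 6159, 4499 and 3337 in the graft libraries, 7205, 12303 and 6032 in the BM-MSC libraries and 80.0, 11.5 and 0 in the P-SSC libraries. Its difference between graft and P-SSCs was 8.80 ± 1.12 (adjusted p = 3.85e-04, limma). The gene called lower was Calr, a chaperone of class I folding (-0.74 ± 0.19, adjusted p = 0.0205, limma). Against BM-MSCs the graft had less Tap2 (-1.34 ± 0.31, adjusted p = 0.0276, limma) and Calr (-0.95 ± 0.19, adjusted p = 0.0147). Of 6 tested MHC class II genes, 1 was called, H2-DMb1, higher in the graft than in P-SSCs (2.64 ± 0.45, adjusted p = 0.00239, limma).

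In 16 genes of interferon receptors, Janus kinase signalling and its inhibitors, 3 (18.8%, near the share of all genes) were higher in the graft than in P-SSCs: Ifngr2 (3.51 ± 0.71), Ifnar2 (2.67 ± 0.38) and Ptpn1 (1.69 ± 0.40), all with an adjusted p of 0.0143 or less (limma). For all 3 genes P-SSC 4 was the highest P-SSC library, and for Ifngr2 it lay above every BM-MSC library. Every graft library still lay above P-SSC 4, but the graft differed less from it than from the P-SSC group. Against BM-MSCs, Socs1 and Socs3, feedback inhibitors of the pathway, were higher in the graft and Stat3 lower (18.8% called), and 4, Ifnar2, Stat3, Ptpn1 and Ptpn6, were lower in P-SSCs than in BM-MSCs (25.0%). Socs1 was at 699, 1847, 801 and 1017 in the graft libraries, 6.27, 4.22 and 5.92 in the BM-MSC libraries and 56.1, 15.3 and 1047 in the P-SSC libraries. P-SSC 4, on the graft side of the GC split, lay within the range of the graft and far above the other steady-state libraries. Socs3 was likewise high in P-SSC 4, at 7597 to 22944 in the graft, 3023, 3521 and 4151 in BM-MSCs and 5084, 8262 and 24677 in P-SSCs. The differences between graft and BM-MSCs were 7.31 ± 1.25 (adjusted p = 0.00756, limma) and 2.12 ± 0.52 (adjusted p = 0.0342, limma).

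Of 53 further interferon-stimulated genes tested, 5 were higher and 3 lower in the graft than in P-SSCs, 15.1% called, which is less than the share of all genes. Those with the largest changes were Ifi27l2a (-8.19 ± 1.44, adjusted p = 0.00283, limma), the chemokine Cxcl9 (6.25 ± 1.35, adjusted p = 0.009), and the interferon-induced GTPases Iigp1 (5.20 ± 0.63, adjusted p = 2.99e-04) and Ifi47 (4.31 ± 0.53, adjusted p = 3.27e-04). Between P-SSCs and BM-MSCs 2 were higher and 7 lower, 9 of 53, which is more than the 9.15% of all genes. Between graft and BM-MSCs 1 was higher and 2 were lower (5.66%, less than the share of all genes). Of 14 nucleic acid sensors and adaptors none was called by limma or edgeR in any comparison. In the order of the comparisons above (graft with P-SSC, P-SSC with BM-MSC, graft with BM-MSC) 3, 1 and 2 had an unadjusted p under 0.05, and DESeq2 called 1, between P-SSCs and BM-MSCs.

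Blood cell transcripts, like class I, were lowest in P-SSCs. Graft 3 and BM-MSC 3, highest of their groups in leukocyte markers, had class I shares of 2.62% and 2.58%. The highest class I shares of the same groups were 3.05% in graft 2 and 4.09% in BM-MSC 2+4. The 16 leukocyte markers in the table took 0.0524, 0.0717, 0.581 and 0.0544% of reads in the graft, 0.0900, 0.214 and 0.315% in BM-MSCs and 0.00332, 0.0110 and 0.00721% in P-SSCs. Of 15 tested, 5 were called higher in the graft than in P-SSCs (33.3%, beside 18.1% of all genes called). Lower in P-SSCs than in BM-MSCs were 6 (40.0%, beside 9.15% of all genes called). Ptprc (CD45), against which the gate selected, was at 0 in every P-SSC library and in graft 1 and 2, at 196 in graft 3 and at 16.7 to 78.0 in BM-MSCs. Of the 16, 1 was at 0 in every graft library, none in every BM-MSC library and 2 in every P-SSC library. The part of leukocytes in the class I difference was not tested. With so few libraries per group, the order of libraries within a group cannot decide it.

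The 8 erythroid markers took 0.0811% ± 0.0765 of reads in the graft, 0.612% ± 0.470 in BM-MSCs and 0.00431% ± 0.00326 in P-SSCs (SD, n = 4, 3 and 3), and Hbb-bs ranged over 563 to 13315, 18402 to 64265 and 67.5 to 566. The 6 endothelial markers in the table took 0.0242% ± 0.00790 in P-SSCs and 0.00109% ± 0.000274 in BM-MSCs (SD, n = 3 each), and 5 of the 6 were at 0 in every graft library. They did not move one way. Tek, an angiopoietin receptor, made up nearly all of the P-SSC share, at 6869, 4820.2 and 3254, and was at 0 in all other libraries but BM-MSC 1, with 1.04. Emcn and Tie1 were at 0 in every P-SSC and graft library, and at 24.3 to 81.5 and 57.4 to 204 in BM-MSCs. Of the 5 tested, Tek was called higher and Emcn and Tie1 lower in P-SSCs than in BM-MSCs. Their part was not tested. In bulk RNA, fewer cells of a type and less RNA per cell cannot be told apart.

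**Figure D5:**
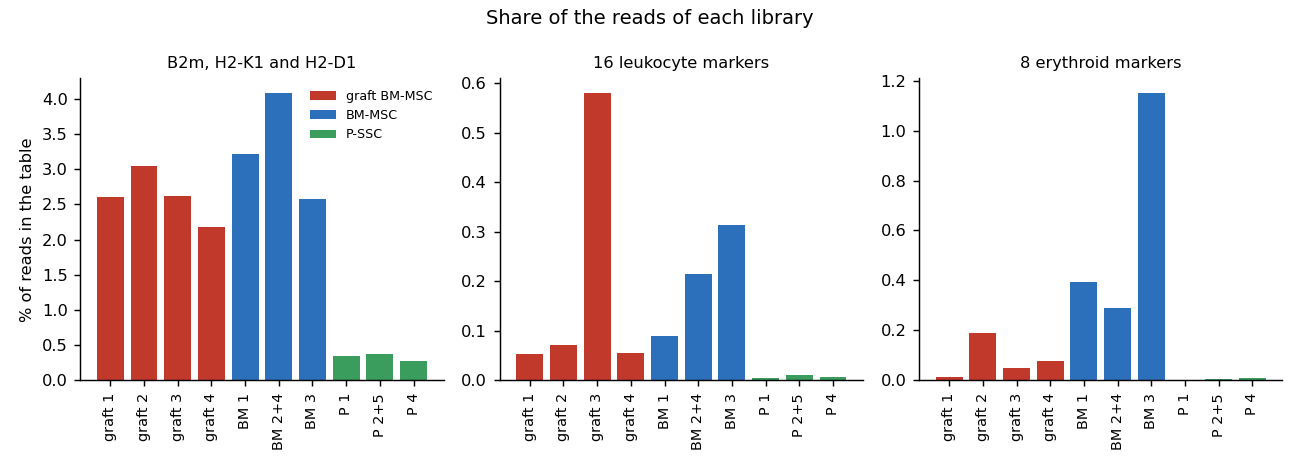
Percent of the reads of each library taken by B2m, H2-K1 and H2-D1, by 16 leukocyte markers and by 8 erythroid markers (linear axes from 0, 1 bar per library, each panel with its own scale). The class I share is 2.18% or more in every marrow library and 0.368% or less in P-SSCs, while graft 3 stands out in leukocyte markers and BM-MSC 3 in erythroid markers.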

How the data were processed

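Normalized read counts of 10 libraries were analysed. Per the authors, reads were mapped with STAR and gene counts were divided by DESeq2 size factors, so the deposited value of a gene is a signal and not a raw count. The methods name GRCm38 and the submitters' processing notes GRCm39, STAR 2.5, featureCounts and DESeq2 1.26.0, so gene positions are given only for RefSeq promoters on GRCm38.p6. Strand settings are not given in the sources used here. All values were whole multiples of 1 read per library (100% within 0.01), which gave reads recovered, totals of 15415421 to 25223295, and a floor of 3 reads. Intervals of counting error are not given. P-values rest on the spread between libraries of distinct mice.

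Genes whose mean value reached 10 were tested on log2(value + 1) with limma 3.58.1 (trend, 3 groups, 7 residual degrees of freedom), 2-sided, with Benjamini-Hochberg adjustment over 13644 genes and a threshold of 0.05. edgeR 4.0.16 and DESeq2 1.42.0 on recovered reads were alternatives. The scripts were tested on simulated data, whose changes were made larger and less variable after a first simulation with smaller changes was recovered too rarely, so that it checks the code and not the power for small changes. GC correction used a robust loess, chosen after a least-squares loess had shifted the medians. Ratio tests doubled the smaller tail. Counting absolute differences, as was first done, gave a smallest p of 0.0286 and a smallest adjusted p of 0.114.

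The members and lists were chosen with earlier results of these data known. Values of every library are given for members called in any comparison and for a set list of core members, others by range, and of each further list at most 4 called genes. Per library, replicates with the same number did not deviate together (correlations of -0.019 to 0.030 over 5 pairs), and no pair of libraries was near identical.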

Additional observations from a re-analysis of the deposited data

Results flagged for a closer look

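In 3 members, 1 graft library stood apart from the other 3 by Dixon's test on log2(value + 1), which flags about 1 in 20 groups by chance. Ifit1 was at 0 in graft 3, Ifit2 at 0 in graft 4 and Usp18 at 0 in graft 2, a different library each time. The gap to the nearest library was 0.843, 0.944 and 0.864 of the range of the group. Graft 2 also had the fewest genes with a read, 9308. The part of the number of genes detected in these zeros was not tested.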

How the results depend on the processing

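The calls of B2m, H2-K1 and H2-D1 between graft and P-SSCs held under all 13 alternatives and 10 fits without 1 library. Of the 18 called changes of members, 413 of 414 refits kept the direction and 307 the call. The exception in direction was H2-D1 between graft and BM-MSCs, 0.34 after quantile normalization. Of 93 changes not called, 54 of 2139 refits passed the threshold and 152 had the other sign. The cause of these shifts was not tested.

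Between graft and P-SSCs (2464 genes, 10 members, median 0.11), genes called were 1081 with the GC batch as a covariate and 1531 with edgeR, members 5 with the 2 groups only and 5 with edgeR, and the median member change was 0.66 with GC correction and 0.55 with the batch. Between graft and BM-MSCs (1046 genes, 1 member, median -0.89) genes were 40 with the batch, 316 with edgeR and 1947 with DESeq2. Members there were 0 with median centring, GC correction, the batch and edgeR, 2 with quantile normalization and with the 2 groups only, and 3 with DESeq2, and the median was -0.18 with GC correction and 0.12 with the batch, where it rests on P-SSC 4 alone. Between P-SSCs and BM-MSCs (1248 genes, 7 members) genes were 619 with edgeR and members 11 with quantile normalization and 11 with DESeq2. The split of genes higher and lower between graft and P-SSCs was 830 and 1634, 1247 and 1241 after quantile normalization and 1264 and 1082 after GC correction, and between graft and BM-MSCs 356 and 690, 588 and 435, and 631 and 384.

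Without 1 library, genes called between graft and P-SSCs ranged from 1583 (without P-SSC 1) to 3005, and members from 6 (without graft 3, BM-MSC 3 or P-SSC 2+5) to 10. Between graft and BM-MSCs genes ranged from 476 (without BM-MSC 2+4, with 477 without BM-MSC 3 and 540 without BM-MSC 1) to 1584 (without P-SSC 4), and members from 0 (without graft 4, BM-MSC 1 or BM-MSC 2+4) to 4 (without P-SSC 4). Between P-SSCs and BM-MSCs genes ranged from 917 to 1495 and members from 4 (without BM-MSC 2+4) to 10. Leaving out P-SSC 4 changed the split of genes higher and lower between graft and P-SSCs to 1429 and 1576.

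The replicate numbers did not pair the libraries. With the replicate block, genes called were 269, 3 and 54 and members 3, 0 and 0 (graft with P-SSC, graft with BM-MSC, P-SSC with BM-MSC). With the replicate block and GC correction they were 340, 3 and 70 and 4, 0 and 1, and the median member change between graft and BM-MSCs was 0.0075.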
